A study of Mus musculus with 12 samples.

Results

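The genes examined were 9 platelet and megakaryocyte genes in mouse aorta, namely Gp6, Gp1ba, Gp1bb, Gp9, Itga2b, Itgb3, Treml1, Ppbp and Pf4. They were taken by symbol from a fixed set of names that applies no cutoff on measured values. The set was chosen with earlier results of these data known. A gene counted as measured if a probe set of the array named that gene and no other. This held for 7 of the 9, among 22180 genes measured in this way, and each of the 7 had 1 probe set. Gp1ba was named by no probe set in the annotation used here, and Gp1bb was named solely by a probe set shared with Septin5, so neither has a value below.

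Aortic vessel tissue came from 12 female mice of the outbred CD-1 stock, with 1 array per mouse. In 1 group, 6 mice received CM-695, an inhibitor of both histone deacetylase 6 and phosphodiesterase 9, by intraperitoneal injection of 80 mg/kg at 2 h and at 1 h before sacrifice. The other 6 mice received saline vehicle; the series design records 1 vehicle injection, while the treatment protocol gives no number, so how many injections the vehicle mice had is uncertain. All mice were perfused with phosphate buffered saline before the vessel was removed and frozen, while age, time of day and dissection order are not stated. The series title concerns thrombosis, and the comparison asked of these genes is whether their signal in the vessel differed between the 2 groups.

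Platelets are fragments shed by megakaryocytes, the large cells of the bone marrow that make them, and they carry RNA received from these cells but no nucleus. At a damaged vessel wall the GPIb-IX-V complex holds platelets to von Willebrand factor, glycoprotein VI binds collagen and starts a tyrosine kinase cascade, and integrin alphaIIb-beta3 then binds fibrinogen and joins platelets to each other. Alpha granules release the chemokines platelet factor 4 and pro-platelet basic protein. In vessel tissue these transcripts can come from blood cells that stayed in or on the vessel, and some members are also made by other cells: Itgb3 by smooth muscle and endothelial cells, and Pf4 by some macrophages.

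Ppbp and Pf4 are neighbouring genes on chromosome 5, in the order Cxcl5, Ppbp, Pf4, Cxcl3, and their CM-695 minus vehicle differences in log2 signal were 0.76 and 0.06. The 250 bases before each start, from RefSeq on GRCm38.p6, are shown for this pair, with matches to 4 short motifs in capitals. The motifs, searched on both strands, were GATAA (bound by GATA factors), AGGAAG (bound by ETS factors), GAANNTTC (a core of the heat shock element) and TATAAA (the TATA box), and no matches overlapped. The Ppbp window is chr5:90768268-90768517 on the plus strand, with TATAAA at 30 and at 8 bases before the start.
Ppbp: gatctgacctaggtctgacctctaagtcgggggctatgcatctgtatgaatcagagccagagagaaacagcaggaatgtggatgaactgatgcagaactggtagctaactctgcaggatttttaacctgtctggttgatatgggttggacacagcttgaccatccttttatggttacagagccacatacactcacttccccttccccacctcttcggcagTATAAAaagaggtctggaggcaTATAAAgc
The Pf4 window is chr5:90772185-90772434 on the plus strand, with GAANNTTC at 242 bases before the start and AGGAAG, on the minus strand, at 9 bases before it.
Pf4: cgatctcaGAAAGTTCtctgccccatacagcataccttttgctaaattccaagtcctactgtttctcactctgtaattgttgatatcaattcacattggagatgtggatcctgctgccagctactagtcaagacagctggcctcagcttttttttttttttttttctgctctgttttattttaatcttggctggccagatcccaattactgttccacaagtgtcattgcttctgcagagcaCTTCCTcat
Windows were held for 8 of the 9 genes, all but Itgb3. GATAA was present in 3 of the 8 (Gp6, Gp1ba and Gp9) against 22.6% of 32851 windows of the same length, and AGGAAG in 4 of the 8 (Pf4, Itga2b, Gp1ba and Gp9) against 29.5%. GAANNTTC was present in Pf4 alone of the 8 and in 6.69% of all windows, and TATAAA in Ppbp alone of the 8 and in 12.4% of all windows. These matches describe letters in these windows and do not show that a factor binds there.

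Values are log2 signals, and the difference of 0.41 in Gp6, for example, is 1.33-fold. The arrays had medians of 4.69 to 4.74 and correlated at 0.957 to 0.977 with each other over all probe sets. Relative to the median of its own array, the vehicle mean was above 0 for 6 of the 7 measured genes, all but Gp6. Because these values carry no detection calls, a signal below the array median does not separate weak expression from none. Probe sets differ in how well they bind, so the signals of different genes are not ranked against each other. In whole tissue, fewer cells of a type and less RNA per cell cannot be told apart.

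In the comparison of CM-695 with vehicle, no measured member passed the threshold of 0.05 on the Benjamini-Hochberg adjusted p of limma, which 37 of the 22180 genes passed (0.167%). At an unadjusted p under 0.05, 3 of the 7 members (Gp6, Ppbp and Gp9) were higher and 0 were lower, where 4.96% of all genes were higher and 4.14% lower. Because the members were chosen with earlier results of these data known, these shares are no test of the list. The exact permutation test also gave 3 members at an unadjusted p under 0.05 and 0 after adjustment. The difference was above 0 for 6 of the 7 members and for 55.3% of all genes, and the median difference was 0.28 over the members and 0.02 over all genes. The member median is the value of 1 gene, Itgb3. Above it lay Ppbp at 0.76, Gp6 at 0.41 and Gp9 at 0.32, and below it Pf4 at 0.06, Itga2b at 0.02 and Treml1 at -0.04. The member median was 0.15 without CM-695 mouse 2, 0.16 with array weights and 0.17 with dim probe sets left out, which removes Gp6. The 6 CM-695 and 6 vehicle values overlapped for each of the 7 members, while 1.08% of all genes had groups that did not overlap.

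**Figure D1:**
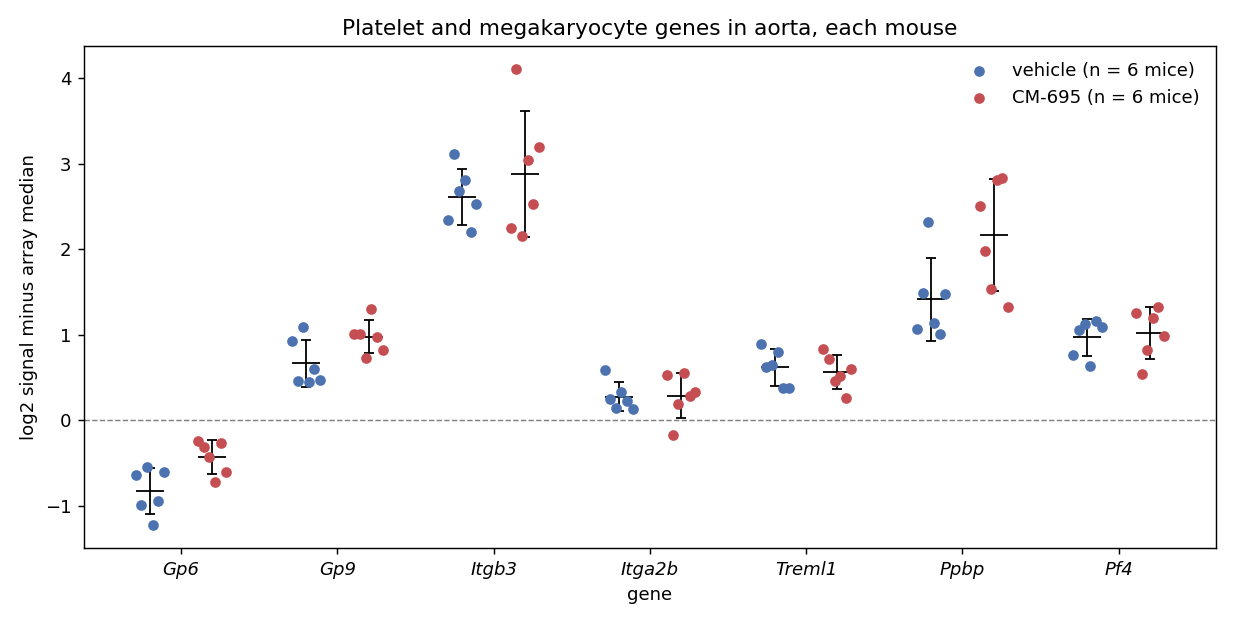
Each point is 1 mouse, and the y axis is the log2 signal of the gene minus the median of that array; bars are the mean and SD of 6 mice per group, vehicle in blue and CM-695 in red. Gp6 lay below the array median in all 12 mice, and the groups overlapped for all 7 genes.

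Gp6 encodes glycoprotein VI, the collagen receptor that signals through the Fc receptor gamma chain. Its log2 signal in the vehicle mice had a lowest value of 3.51, a median of 3.92 and a highest value of 4.18, and in the CM-695 mice 3.98, 4.37 and 4.50. In 4 of the 6 CM-695 mice it was above the highest vehicle mouse, and the remaining pair lay within the vehicle range. The means were 3.89 ± 0.27 and 4.30 ± 0.20 (SD, n = 6 each), so that CM-695 was 0.41 higher on average (SE 0.14, 95% confidence interval 0.12 to 0.70), with an adjusted p of 0.360 by limma. The unadjusted p was 0.00988 by limma and 0.0173 by the exact two-sided permutation test, neither corrected for the other genes. Gp6 had a signal below the array median in all 12 mice, at -0.82 ± 0.27 in vehicle and -0.43 ± 0.20 in CM-695 (log2, SD, n = 6 each).

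Gp9 encodes glycoprotein IX, the subunit of the von Willebrand factor receptor complex whose partners Gp1ba and Gp1bb have no value here. The vehicle mice had a lowest log2 signal of 5.16, a median of 5.25 and a highest of 5.81, and the CM-695 mice 5.47, 5.71 and 6.01. Vehicle mice 1 and 3, at 5.65 and 5.81, lay within the CM-695 range, while the other 4 vehicle mice were below every CM-695 mouse. The means were 5.38 ± 0.28 and 5.70 ± 0.18 (SD, n = 6 each), a difference of 0.32 (SE 0.14, interval 0.03 to 0.61) with an adjusted p of 0.505 by limma. Its unadjusted p was 0.0341 by limma and 0.0411 by the exact permutation test. The interval lies just above 0, and the unadjusted p of limma stayed under 0.05 in 5 of the 12 fits that left out 1 mouse.

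Itga2b and Itgb3 encode the alphaIIb and beta3 chains of the fibrinogen receptor. The alphaIIb chain is made in megakaryocytes and platelets, whereas beta3 also pairs with the alphaV chain in other cells. Itga2b had a lowest log2 signal of 4.83, a median of 4.94 and a highest of 5.32 in vehicle, and 4.57, 5.03 and 5.27 in CM-695. The CM-695 mice thus spanned almost the whole vehicle range and reached below it, with CM-695 mouse 2 below the median of its array. The difference in Itga2b was 0.02 (SE 0.13, interval -0.26 to 0.30), with an adjusted p of 0.980 by limma.

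Itgb3 had a lowest log2 signal of 6.91, a median of 7.31 and a highest of 7.82 in vehicle, and 6.89, 7.49 and 8.85 in CM-695. The highest value was CM-695 mouse 2, and the SD was 0.73 in CM-695 against 0.33 in vehicle (n = 6 each). Its difference was 0.28 (SE 0.29, interval -0.35 to 0.91), with an adjusted p of 0.819 by limma. Without CM-695 mouse 2 the difference was 0.03, with an adjusted p of 0.978 by limma.

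Treml1 encodes TLT-1, a receptor stored in alpha granules that reaches the platelet surface on activation. It had a lowest log2 signal of 5.08, a median of 5.35 and a highest of 5.62 in vehicle, and 4.97, 5.28 and 5.57 in CM-695. The groups covered nearly the same range, and Treml1 was the one member with a difference below 0, at -0.04 (SE 0.13, interval -0.32 to 0.23, adjusted p 0.948 by limma).

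Ppbp encodes pro-platelet basic protein, the precursor of the neutrophil-attracting chemokine CXCL7. Its log2 signal had a lowest value of 5.71, a median of 6.02 and a highest of 7.04 in vehicle, and 6.06, 6.98 and 7.53 in CM-695. CM-695 mice 1, 4 and 5, at 7.25, 7.51 and 7.53, were above every vehicle mouse. CM-695 mice 2, 3 and 6, at 6.72, 6.27 and 6.06, were within the vehicle range, and vehicle mouse 3, at 7.04, stood above the other vehicle mice. The means were 6.13 ± 0.49 and 6.89 ± 0.64 (SD, n = 6 each), a difference of 0.76 (SE 0.29, interval 0.13 to 1.39) or 1.70-fold, with an adjusted p of 0.446 by limma. The unadjusted p was 0.0209 by limma and 0.0455 by the exact permutation test, and this difference had the largest size among the 7 members. Leaving out CM-695 mouse 4 or mouse 5 put the unadjusted p of limma at 0.0511 and 0.0513.

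Pf4 encodes platelet factor 4, an alpha granule chemokine that binds heparin. It had a lowest log2 signal of 5.38, a median of 5.78 and a highest of 5.86 in vehicle, and 5.28, 5.81 and 6.03 in CM-695. The groups had nearly the same median, and the difference was 0.06 (SE 0.14, interval -0.24 to 0.36), with an adjusted p of 0.935 by limma.

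Whether the members differed from each other in their group difference was tested within mice, as the gap between a pair of genes compared between the groups over all 21 pairs. No pair passed after adjustment over the 21, with a lowest adjusted p of 0.239 by the exact permutation test, and 2 pairs had an unadjusted p under 0.05. The gap of Ppbp over Pf4, which compares these neighbours within each mouse, had a mean of 0.44 in vehicle and 1.14 in CM-695, a difference of 0.70 (SE 0.27). It was above every vehicle mouse in 4 of 6 CM-695 mice, with an exact p of 0.0260 and an adjusted p of 0.239. The gap of Gp6 over Treml1 differed by 0.45 (SE 0.19, exact p 0.0325, adjusted p 0.239).

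**Figure D2:**
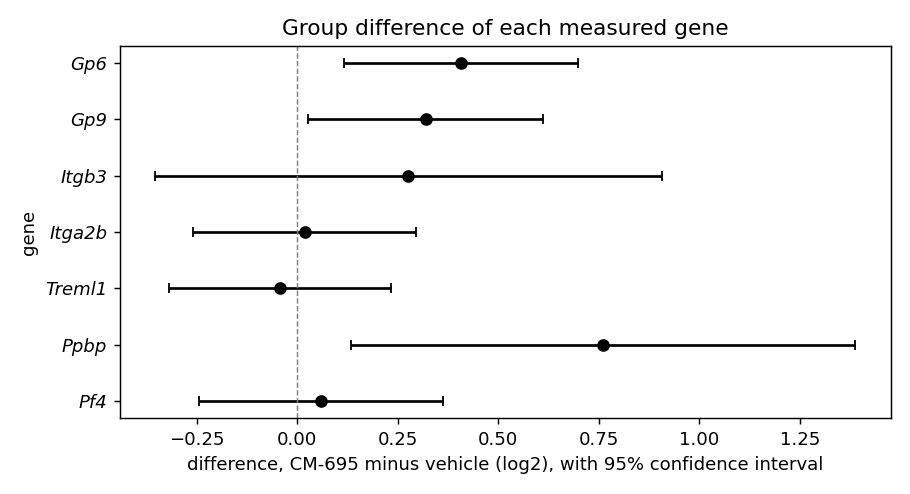
Points are the CM-695 minus vehicle difference in log2 signal for each measured gene (n = 6 mice per group), and bars are limma's 95% confidence intervals. The intervals of Gp6, Gp9 and Ppbp lie above 0 before any correction for the other genes, and those of the other 4 genes include 0.

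To see whether the members varied together, the group means were subtracted and each pair was correlated over the 12 mice. Of 21 pairs, 0 passed after adjustment and 1 had an unadjusted p under 0.05. The coefficients ranged from -0.52 to 0.59 with a median of 0.15, and 14 were above 0. No movement of the 7 genes as 1 block was detected, though 12 mice are few and could miss it. Ppbp and Gp9 had a Pearson r of 0.59 (permutation p 0.0383, adjusted p 0.700) and a Spearman rho of 0.53 (permutation p 0.0861), and r was 0.37 without the 2 mice farthest from the median of Ppbp. Ppbp and Pf4 had an r of 0.58 (permutation p 0.0811, adjusted p 0.700) and a rho of 0.55 (permutation p 0.0998), with r at 0.64 without the 2 farthest mice. This pair did not pass the test, and its r was 0.45 within vehicle and 0.64 within CM-695. CM-695 mice 1, 4 and 5 were high for both genes, whereas vehicle mouse 5 had the lowest Ppbp and the highest Pf4 of its group.

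Markers of the cell types that an aorta sample can hold were summarised as a mean log2 signal per mouse. For the labelled tissue, all 9 vascular smooth muscle markers, all 10 endothelial markers and all 9 fibroblast markers had a vehicle mean above the array median. The smooth muscle mean ranged over 9.15 to 10.03 in vehicle and 8.66 to 10.53 in CM-695, the endothelial mean over 7.32 to 7.65 and 7.37 to 7.69, and the fibroblast mean over 8.77 to 9.61 and 8.55 to 9.09. Adipocyte markers, at 10.10 to 10.42 and 9.73 to 10.64, were also high, and liver markers lay at 4.16 to 4.55 and 4.15 to 6.68. Among blood cells, monocyte and macrophage markers lay at 6.15 to 6.86 and 6.20 to 6.83, T and B lymphocyte markers at 4.29 to 4.71 and 4.55 to 5.09, neutrophil markers at 3.74 to 3.96 and 3.77 to 4.01, and the 5 erythroid markers measured of 14 at 3.91 to 4.26 and 3.91 to 4.31. No marker of these lists passed the adjusted threshold of limma, but some lists lay to 1 side. All 9 fibroblast markers had a difference below 0 (median -0.46, 4 with an unadjusted p under 0.05), and 3 of 6 CM-695 mice had a fibroblast mean below every vehicle mouse. All 9 smooth muscle markers were also below 0 (median -0.28, 0 with an unadjusted p under 0.05). Of the 8 T and B lymphocyte markers measured, 6 were above 0 and 2 below, with a median of 0.15. At an unadjusted p under 0.05 by limma, 3 of these 8 were higher and 1 was lower. The lymphocyte mean of 4 of 6 CM-695 mice was above every vehicle mouse. All 9 liver markers were above 0 (median 0.35, 1 with an unadjusted p under 0.05). CM-695 mice 4 and 5, the highest for Ppbp, had liver means of 5.10 and 6.68 against at most 4.55 in vehicle. CM-695 mouse 1, the next highest for Ppbp, had a liver mean of 4.15, below every vehicle mouse. The part of these tissues and cells in the member differences was not tested.

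Red cell RNA was read from 5 probe sets that name several globin genes and no other gene, a set added after the annotation had been seen. Their mean log2 signal was 6.44 ± 0.33 in vehicle and 6.84 ± 0.29 in CM-695 (SD, n = 6 each), with ranges of 5.87 to 6.76 and 6.57 to 7.28, and 2 of 6 CM-695 mice were above every vehicle mouse. All 5 had a difference above 0, from 0.13 to 0.58, 2 with an unadjusted p under 0.05, and their adjusted p lay between 0.353 and 0.811 by limma. The planned erythroid list did not share this direction: of its 5 measured markers, 2 were above 0 and 3 below, with a median of -0.02. Of these 5 markers, 1 had a vehicle mean above the array median. With the globin mean as a covariate, the difference was 0.32 in Gp6, 0.40 in Ppbp and 0.33 in Gp9 (SE 0.171, unadjusted p 0.0754 by limma), and 0 of the 7 members had an unadjusted p under 0.05. Heart muscle markers had differences of the opposite sign: their mean ranged over 7.76 to 9.93 in vehicle and 6.29 to 8.99 in CM-695, with a median difference of -1.68 and 8 of 9 markers lower at an unadjusted p under 0.05. With the heart muscle mean as a covariate, the difference was 0.31 in Gp6, 0.19 in Ppbp and 0.04 in Gp9. The part of blood or of adjoining heart tissue in the member differences was not tested beyond these values.

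Each of the 7 members was also correlated with the means of the 11 sets, again within groups, which gave 77 relations. The family was chosen after the values had been seen. It held 1 relation past the threshold, that of Itgb3 with the vascular smooth muscle markers, at r = 0.96 (permutation p 6e-05, adjusted p 0.00462) and rho = 0.92 (permutation p 0.00018, adjusted p 0.0139). It held at 0.91 without the 2 mice farthest from the median of Itgb3, at 0.87 within vehicle and at 0.997 within CM-695. CM-695 mouse 2, the highest for Itgb3, was also the highest for the smooth muscle mean, at 10.53. With the smooth muscle mean as a covariate, the difference in Itgb3 was 0.54 (SE 0.11) with an adjusted p of 0.0707 by limma.

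Other members had no relation past the threshold. Pf4 had an r of 0.76 with the monocyte and macrophage markers (adjusted permutation p 0.172). Its r was 0.70 with the adipocyte markers and 0.67 with the globin probe sets (adjusted permutation p 0.273 for each). Ppbp had an r of -0.67 with the neutrophil markers (adjusted permutation p 0.207) and a rho of -0.82 (adjusted permutation p 0.0597), with r at -0.37 without the 2 mice farthest from its median. Its r was -0.61 with the heart muscle markers, 0.57 with the fibroblast markers, 0.51 with the liver markers and 0.51 with the globin probe sets (adjusted permutation p 0.358, 0.358, 0.490 and 0.490). Gp9 had an r of -0.72 with the heart muscle markers (adjusted permutation p 0.172). Itga2b had an r of 0.65 with the adipocyte markers (adjusted permutation p 0.358). For Treml1, r was 0.58 with the erythroid markers and -0.61 with the monocyte and macrophage markers (adjusted permutation p 0.358 for each). Among the relations of Itgb3 that did not pass, the largest in size was with the adipocyte markers, at -0.80 (adjusted permutation p 0.273).

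**Figure D3:**
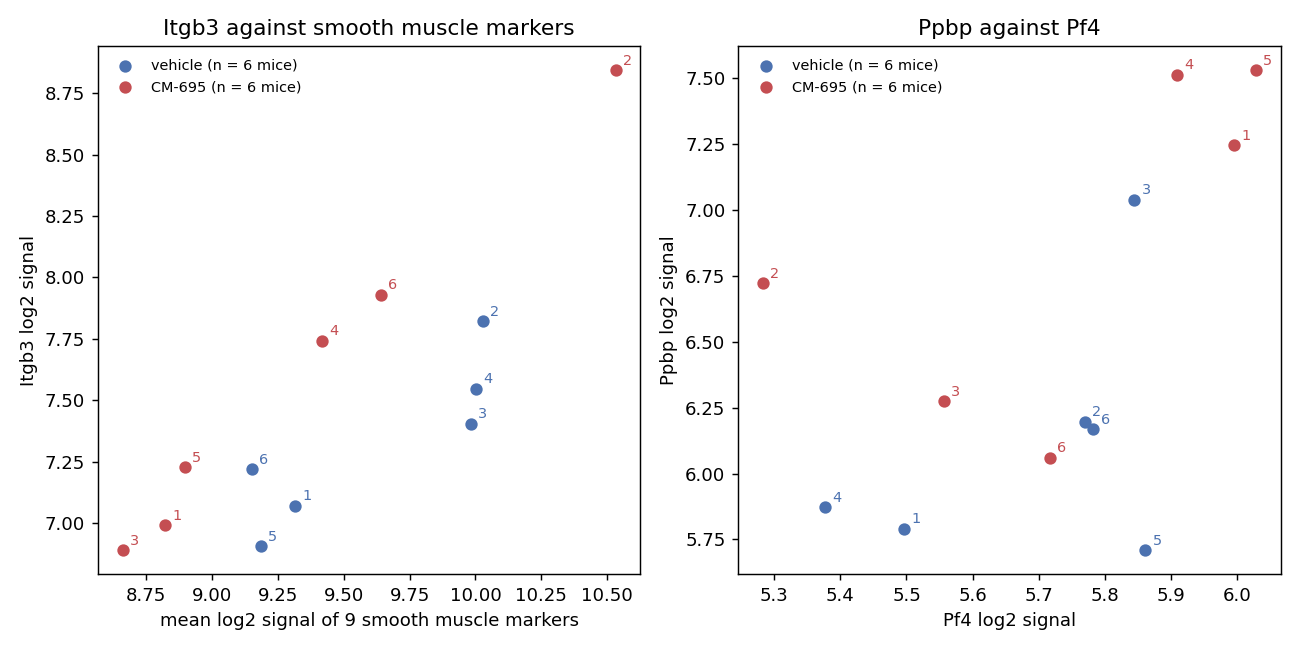
Each point is 1 mouse with its number within its group, vehicle in blue and CM-695 in red, and all axes are log2 signals. On the left, Itgb3 is plotted against the mean of 9 smooth muscle markers and climbs with it in both groups; on the right, Ppbp is plotted against Pf4, with CM-695 mice 1, 4 and 5 highest for Ppbp.

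Beyond the members, 66 other genes of platelet function were listed by role, of which 60 were measured. None of the 60 passed the adjusted threshold of limma in either direction, 6 were higher and 0 lower at an unadjusted p under 0.05, beside 4.96% and 4.14% of all genes. A difference above 0 was found in 34 and below 0 in 26, close to the 55.3% above 0 among all genes, with a median of 0.05. Tubb1 was the 1 gene of the 60 whose groups did not overlap, a share near the 1.08% of all genes. The genes named by role are those with the smallest p, unless said otherwise.

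Of the other adhesion and surface receptors, 9 of 10 were measured, 3 with a difference above 0 and 6 below, with a median of -0.04. The 3 with the smallest p were the 3 above 0. Cd226, an adhesion receptor shared with T and natural killer cells, had a difference of 0.43 (SE 0.15, adjusted p 0.364 by limma). Gp5, the remaining subunit of the GPIb-IX-V complex, had a difference of 0.23, and Selp, the P-selectin gene of platelets and endothelium, 0.22. The Gp5 signal was above the array median in 0 of 6 vehicle and 2 of 6 CM-695 mice. Lowest of the 6 below 0, and picked after their values were seen, were Pear1 at -0.17, Cd9 at -0.17 and Itga2, a chain of another collagen receptor, at -0.14.

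Receptors for soluble agonists, of which 10 of 11 were measured, had a median difference of 0.11. Ptger3, a prostaglandin E2 receptor that sensitises platelets and is also made in vessel and fat cells, had a lowest log2 signal of 7.11, a median of 7.39 and a highest of 7.89 in vehicle, and 7.75, 8.53 and 8.98 in CM-695. It was above every vehicle mouse in 4 of 6 CM-695 mice, with a difference of 0.95 (SE 0.24, unadjusted p 0.00141, adjusted p 0.180 by limma). The thrombin receptor genes F2rl3, encoding PAR4, and F2rl2, encoding PAR3, had differences of 0.30 (SE 0.13, adjusted p 0.534 by limma) and 0.22 (SE 0.10, adjusted p 0.548 by limma). Both were above the array median in 0 of 6 vehicle mice, and in 3 and 1 of 6 CM-695 mice. F2r, encoding the thrombin receptor PAR1, which human platelets use and mouse platelets largely lack, was picked after its value was seen: it had a difference of -0.50 (SE 0.27, adjusted p 0.611 by limma), with 3 of 6 CM-695 mice below every vehicle mouse.

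Signalling and integrin activation genes, 15 of 16 measured, had a median difference of 0.10. The 3 with the smallest p were Lcp2, the SLP-76 adaptor, at 0.33 (adjusted p 0.512 by limma), the kinase gene Syk at 0.28 and the adaptor gene Lat at -0.25. Fcer1g, the Fc receptor gamma chain that partners glycoprotein VI, and Plcg2, a phospholipase of the same cascade, differed by 0.00725 and -0.00289 and were picked after their values were seen. All 12 granule and secretion genes were measured, with a median of -0.03. Nbeal2, needed to form alpha granules, had a difference of 0.17 (adjusted p 0.524 by limma), and Mmrn1 and F13a1 of the same list had -0.34 and -0.26.

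Of the eicosanoid enzymes, 2 of 3 were measured: Tbxas1, thromboxane synthase, at 0.17 and Alox12, platelet-type lipoxygenase, at 0.12. Cytoskeletal genes, 4 of 5 measured, had a median difference of 0.08. Tubb1 encodes the beta tubulin of the platelet marginal band, and its log2 signal was 4.52 to 4.77 in vehicle and 4.77 to 5.11 in CM-695. All 6 CM-695 mice were above the highest vehicle mouse, though by a narrow margin, with means of 4.67 ± 0.10 and 4.92 ± 0.15 (SD, n = 6 each) and a difference of 0.25 (SE 0.091, adjusted p 0.424 by limma). Its exact permutation p of 0.0021645 is the smallest that 6 against 6 mice can give and did not pass after adjustment. Was, the Wiskott-Aldrich protein gene, had a difference of 0.21. Flna, filamin A, which smooth muscle also makes, had a difference of -0.31 and a mean log2 signal of 10.72 in vehicle.

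The 8 megakaryocyte transcription factors measured had a median difference of 0.07. The values were 0.29 in Zfpm1, the partner of GATA1, 0.16 in Nfe2, which acts late in platelet formation, and -0.23 in Meis1. None of the 3 had an unadjusted p under 0.05.

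**Figure D4:**
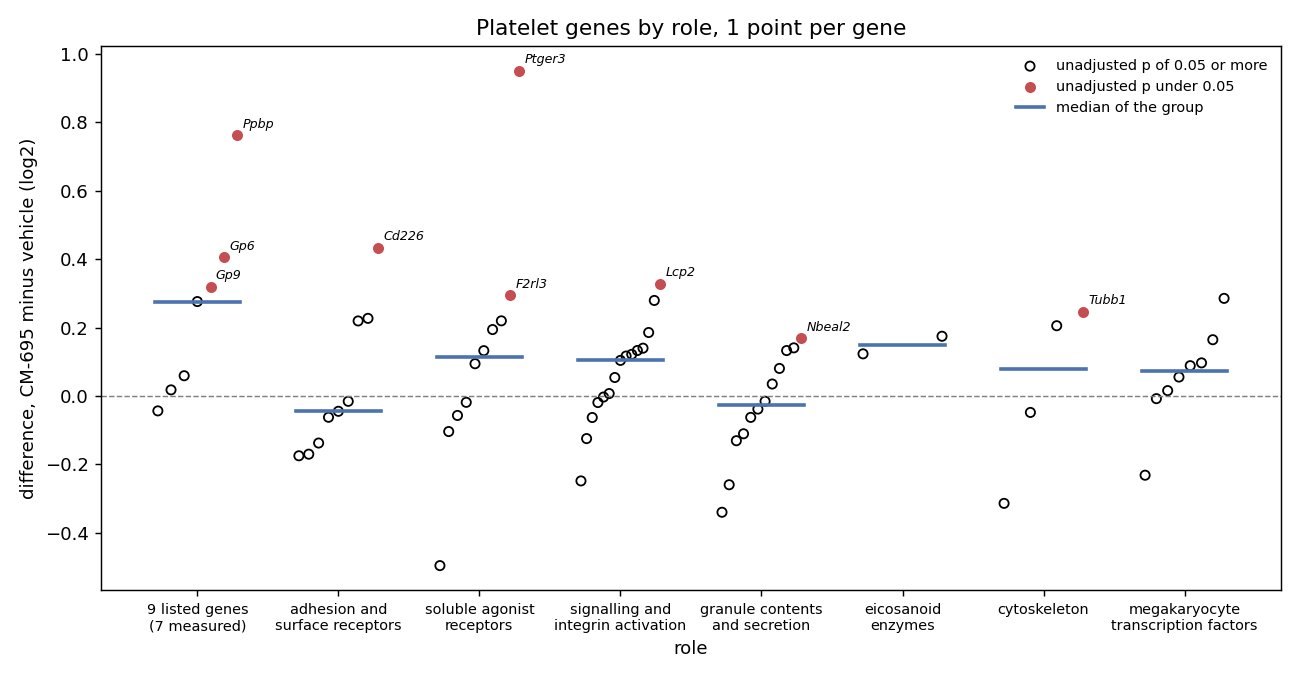
Each point is 1 measured gene, placed by role, and the y axis is its CM-695 minus vehicle difference in log2 signal (n = 6 mice per group); filled points have an unadjusted p under 0.05 by limma and blue lines are medians of the role. Ptger3 at 0.95 and Ppbp at 0.76 are the highest points, and no gene shown passed the adjusted threshold.

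The genes most like the members were ranked by Pearson's r between each of 22173 other genes and the mean of the 7 members, scaled to the same SD, over the 12 mice with group means subtracted. The 10 highest coefficients ran from 0.89 to 0.83 and belonged to Sf3b4, Shoc1, Tmc5, Susd4, Cenpi, a gene with a clone name, Tlx2, Gins3, Olfr1085 and Clec1b. Clec1b, at rank 10 with an r of 0.83, encodes the platelet receptor CLEC-2 and was the 1 gene of the other 60 measured platelet genes among them; its own group difference was -0.04 (adjusted p 0.928 by limma), and its signal was below the array median in all 12 mice, with group means of -1.77 and -1.82 relative to it. This ranking is a description over 12 mice with no test.

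Each mouse was left out in turn for all 7 members. The difference in Gp6 stayed between 0.33 and 0.47 and that in Gp9 between 0.26 and 0.41. Ppbp ranged from 0.63 without CM-695 mouse 5 to 0.94 without vehicle mouse 3, and Itgb3 from 0.03 to 0.42. Differences in Pf4, Itga2b and Treml1 lay near 0 throughout and took either sign. No member passed the adjusted threshold of limma in any of these 12 fits.

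**Figure D5:**
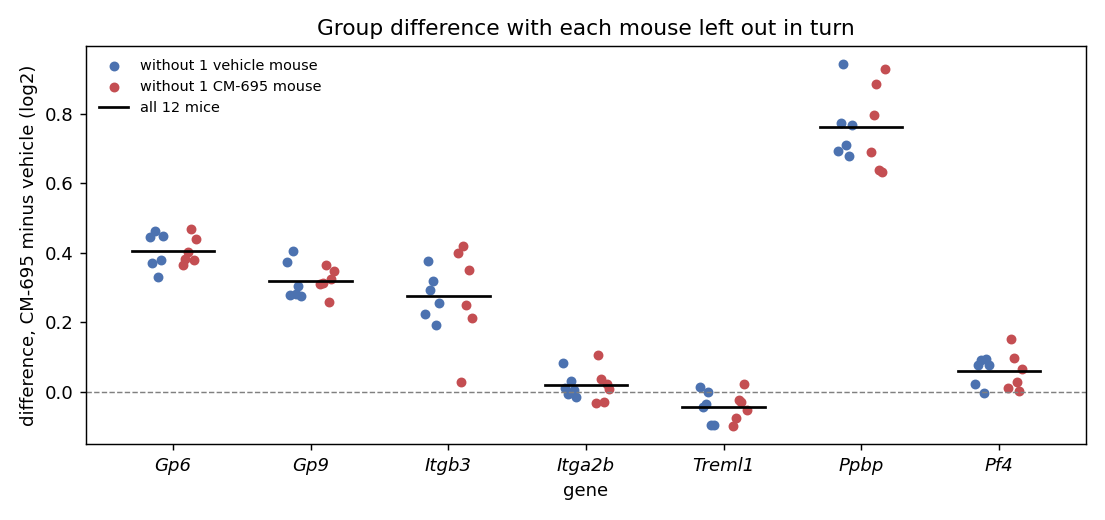
Each point is the CM-695 minus vehicle difference in log2 signal with 1 mouse left out, blue for a vehicle mouse and red for a CM-695 mouse, and the black line is the value with all 12 mice. Gp6, Gp9 and Ppbp stay above 0 in all 12 fits, and 1 fit takes Itgb3 to 0.03.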

How the data were processed

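RNA of aortic vessel tissue was measured on 12 arrays, 1 per mouse. The deposited table holds log2 values for 41345 probe sets, made by the authors with RMA (background correction, normalization across arrays, summary of probes), per the submitters' processing notes. The software, its version and the genome build are not stated there. In the platform annotation, 23521 probe sets named 1 gene, 1814 named several, and the other 16010 are unnamed here. Where a gene had several probe sets (1082 genes), that with the highest mean over all arrays was used.

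A linear model with the group as its term was fitted to all probe sets (lmFit, then eBayes, of limma 3.58.1 under R 4.3.3). Two-sided p-values were Benjamini-Hochberg adjusted over the 41345 probe sets, and the threshold was 0.05. Exact permutation tests used all 924 assignments of 6 mice to a group. Correlations used values with group means subtracted and 100000 permutations. The procedure was checked on simulated data with known changes, 50 probe sets per fold. It recovered 46% of the 1.5-fold and 82% of the 2-fold changes at the threshold, and 11 of its 172 calls were false. The simulated noise was normal and independent between probe sets, and 4-fold and 8-fold changes were planted too. Recovery in the real data can therefore differ from these shares. A change of 1.5-fold can thus be missed with this number of mice. Each mouse is a separate animal, and the number of mice limits the precision.

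The members, the other platelet genes and the marker lists were chosen with earlier results of these data known. Genes named were the members, up to 3 per role and any past the threshold, and the 10 most like the members; motifs and covariates were chosen after the values were seen. Alternatives were 21 planned and 3 added.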

Additional observations from a re-analysis of the deposited data

Results flagged for a closer look

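Among 54 groups of 6 mice examined for a mouse standing apart from the rest, 14 of them for the 7 members, 2 had such a mouse, and chance alone gives about 1 in 20 groups. The Ppbp log2 signal of vehicle mouse 3 was 7.04, with the next vehicle mouse at 6.20, a gap of 0.633 of the range of the group. Without this mouse the difference in Ppbp was 0.94. The Lat log2 signal of vehicle mouse 4 was 5.83, with the next vehicle mouse at 5.34, a gap of 0.671 of the range.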

How the results depend on the processing

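Over 24 alternatives, of which the 3 covariates were added after the data had been seen, 0 members and 0 of the other platelet genes passed the adjusted threshold. The adjusted p ranged over 0.268 to 0.781 for Gp6 (23 alternatives, since the filter on dim probe sets removed it), 0.290 to 0.932 for Ppbp, 0.345 to 0.978 for Gp9 and 0.0707 to 0.978 for Itgb3. The 3 members with an unadjusted p under 0.05 became 1 with the replicate number as a block, 0 with the globin covariate, 0 with the heart muscle covariate, 4 with the smooth muscle covariate and 1 to 3 with a mouse left out. The median member difference was 0.0368 with the heart muscle covariate and 0.152 to 0.366 with a mouse left out. Probe sets past the threshold numbered 64, and 15 with the replicate block, 116 without dim probe sets, 0 by the exact permutation test, 115 with the smooth muscle covariate, 16 with the globin covariate, 13 with the heart muscle covariate and 22 to 98 with a mouse left out.

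Signs turned for 3 members. Pf4 differed by -0.00458 with the smooth muscle, -0.151 with the globin and -0.0143 with the heart muscle covariate, and by -0.00296 to 0.152 with a mouse left out. Itga2b differed by -0.0307 with the smooth muscle and -0.0808 with the heart muscle covariate, and by -0.0329 to 0.107 with a mouse left out. Treml1 differed by 0.0554 with the globin covariate and by -0.0993 to 0.0222 with a mouse left out. The cause of these shifts was not tested.

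Mice of both groups carry the same numbers 1 to 6. Same-numbered mice correlated at -0.104 to 0.101, and 2 of 12 matched best with their own number, so the values show no pairing by number, though a shared day or order is not stated either way, and a call lost under the block is not described as a weaker effect.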

Other observations

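Likeness to single members was also ranked over 22179 other genes, with group means subtracted over the 12 mice. The nearest platelet genes were picked out after their values were seen, and no test was made of their ranks. For Gp9 these were Clec1b (r = 0.84, rank 11) and Tubb1 (r = 0.74, rank 77). For Ppbp it was the coagulation factor gene F5 (r = 0.86, rank 6) and for Itga2b the thrombospondin receptor gene Cd36 (r = 0.81, rank 66). Cd36 had mean log2 signals of 11.57 in vehicle and 11.56 in CM-695. Ppbp had an r of 0.51 with the liver markers, and Itga2b of 0.65 with the adipocyte markers. Which cells the F5 and Cd36 transcripts came from was not tested. For Gp6 the nearest was Clec1b (r = 0.65, rank 281). For Itgb3 it was Flna (r = 0.93, rank 137), a gene that smooth muscle also makes. For Pf4 and Treml1 the nearest platelet genes ranked lower, F5 at 722 (r = 0.67) and Pear1 at 978 (r = 0.57). Genes outside the platelet list held rank 1, namely Yipf6 for Gp6, Iqcf5 for Ppbp, Glb1l2 for Pf4, Hcn2 for Itga2b, Ror1 for Itgb3 and Sf3b4 for Gp9.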
